A study of Mus musculus with 8 samples.

Results

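The genes described here encode 10 chains of cytokine receptors: Il17ra, Il10ra, Il4ra, Il6ra, Il13ra1, Ifngr1, Ifngr2, Ifnar1, Ifnar2 and Csf2rb. They were taken by symbol from a table of 26848 genes, and all 10 were among the 16006 genes with enough counts to be tested. RNA was sequenced from RAW264.7, a cell line of mouse macrophage type, grown on polyetheretherketone (PEEK), an implant polymer, with 4 libraries from a smooth surface and 4 from a nano- and microstructured one. All 8 libraries came from the same cell line, no added cytokine or other agent is named for either surface, and the series asks how topography shapes the immune surroundings of an implant. The labels number biological replicates without saying whether these were separate cultures, so the p-values here speak for the spread among these libraries, and that spread may be technical.

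A cytokine receptor is built from several chains. A ligand-specific chain binds the cytokine, and a partner chain, often shared between cytokines, completes the signalling complex. The interleukin, interferon and GM-CSF receptors among these genes carry no kinase of their own and signal through bound JAK kinases, which phosphorylate STAT transcription factors. The IL-17 receptor is of another family and passes its signal through the adaptor Act1 (Traf3ip2) and TRAF6 to NF-kappaB. Macrophages carry receptors of all these families, and through them switch between inflammatory and tissue-repair programmes.

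Il17ra fell on the structured surface by 0.35 ± 0.04 (log2 fold change ± SE), which is 21.6% lower, and it was the 1 chain of the 10 that passed the test. The chains that bind IL-10 and IL-13 (Il10ra and Il13ra1) and Ifngr1 had higher mean levels on the structured surface, Ifnar2 had a lower one, and none of these passed. Il6ra, Ifnar1, Ifngr2 and Csf2rb differed by at most 0.04 on the log2 scale, and Il4ra was too low for a precise value. Calls are from edgeR's quasi-likelihood test at a Benjamini-Hochberg adjusted p of 0.05 over all tested genes. By that rule 3.75% of all tested genes were called, 2.75% lower and 1.01% higher on the structured surface. The chains were chosen by name with their fold changes and calls in this contrast already known, so their count and their values in it are a description and nothing is read from them. An unadjusted p under 0.05 was found for 4 of the 10 and for 18.7% of all tested genes. Of the 10, 7 had a positive and 3 a negative log2 fold change, with a median of 0.04 against 0.01 over all tested genes.

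Library totals ran from 64479829 to 73098735 count units, and log2 CPM correlated between libraries at 0.968 to 0.982 within a surface and at 0.968 to 0.979 between surfaces. The macrophage markers were high, with a summed level of 3685 to 3885 FPKM on the smooth and 3850 to 3963 on the structured surface, and of the 15 markers 12 were tested and none was called. The other 3 markers, Mertk, C1qa and C1qb, stayed at or below 0.285 FPKM in every library. Hepatocyte markers, which RAW264.7 cells are not known for, were highest in smooth 1, structured 3 and structured 4, with sums of 166, 129 and 230 FPKM against 38.4 to 67.0 in the other 5 libraries. Neutrophil markers summed to 16.9 to 18.9 FPKM on the smooth surface and to 21.7, 63.4, 64.5 and 73.2 FPKM in structured 1 to 4. Of their 8 tested genes 5 rose (S100a8, S100a9, Ngp, Mmp8 and Chil3, named after their values were seen) and 0 fell. Most of the smooth sums came from Mmp9, at 14.4 to 16.8 FPKM and also named after its values were seen. Mmp9 was lower on the structured surface, at 13.0 to 14.2 FPKM without overlap, and was not called. Csf3r, of the same list, differed by 0.02 on the log2 scale. Skeletal muscle markers summed to 43.2, 27.4, 22.4 and 29.4 FPKM in smooth 1 to 4 and to 22.6 to 25.5 on the structured surface, and 3 of their 13 tested genes fell (Ckm, Tnnc2 and Atp2a1, also named after their values were seen). B cell markers summed to 69.2 to 84.4 FPKM over the 8 libraries with none of 3 tested genes called, and sums of T cell and fibroblast markers stayed at or below 2.71 and 0.525 FPKM. In bulk RNA, fewer cells of a type and less RNA per cell cannot be told apart.

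FPKM, the deposited value per length of transcript and per depth of library, allows levels to be compared between genes. Averaged over the 8 libraries, 3 of the 4 interferon receptor chains led, and Ifngr1 stood lower. Ifngr2, the signalling chain of the IFN-gamma receptor, was highest at 21.8 FPKM, above 85.3% of tested genes. Ifnar2, the high-affinity chain of the type I interferon receptor, followed at 17.5 FPKM. The ranges of these chains over the 8 libraries did not overlap.

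Below them, Ifnar1 at 9.65, Il6ra at 9.02, Il17ra at 7.76 and Ifngr1 at 7.34 FPKM formed a run in which each range over all 8 libraries overlapped the next. The overlap of Il17ra with Ifngr1 came from taking the surfaces together, and on the structured surface Il17ra, at 6.72 to 6.99 FPKM, was also clear of Il6ra, at 8.73 to 9.44. Il10ra at 4.15, Il13ra1 at 2.29, Csf2rb at 1.55 and Il4ra at 0.375 FPKM came next, each with a range clear of its neighbours. Il4ra lay above only 21.1% of tested genes. The order was the same when CPM values were divided by the length that the deposited values imply.

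**Figure D1:**
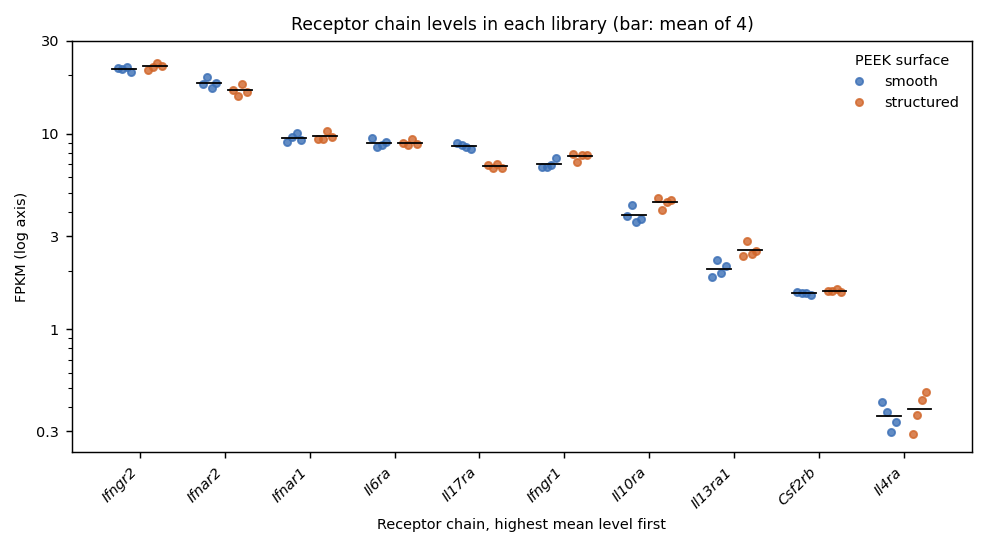
FPKM (log axis) of the 10 receptor chains in each of the 8 libraries, ordered by mean level, with smooth PEEK in blue, structured PEEK in orange and a bar at the mean of 4. The points run from above 20 FPKM for Ifngr2 to below 0.5 for Il4ra, and the orange points of Il17ra (6.72 to 6.99) lie below all its blue points (8.42 to 8.95).

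The place of Il17ra in that order differed between surfaces. On the smooth surface its mean of 8.69 ± 0.235 FPKM (SD, n = 4) was close to that of Il6ra, 9.01 ± 0.387, and above that of Ifngr1, 7.01 ± 0.357. On the structured surface Il17ra, at 6.83 ± 0.134, was below Ifngr1, at 7.67 ± 0.309. The ranges of Il17ra and Ifngr1 did not overlap on either surface, with Il17ra the higher in every smooth library and the lower in every structured one. Whether the change of Il17ra differs from that of Ifngr1 was not tested.

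Il17ra (ENSMUSG00000002897, chromosome 6, 120463247 to 120487559, plus strand) encodes the chain shared by the receptors for IL-17A, IL-17F, IL-17C and IL-25. Its level in smooth 1 to 4 was 8.95, 8.81, 8.59 and 8.42 FPKM, and in structured 1 to 4 it was 6.90, 6.72, 6.99 and 6.73 FPKM. All 4 structured libraries were below all 4 smooth ones, and the gap between the groups was wider than the range within either. Non-overlapping FPKM ranges were found for 12.2% of all tested genes, and for 6.45% of all tested genes with the structured surface lower. Its adjusted p of 0.00152 in edgeR was the 10th smallest of all tested genes and was known when the chains were chosen. Some neutrophil markers rose and some skeletal muscle markers fell in the same contrast, and their part in the difference of Il17ra was not tested. Without the 3 libraries richest in hepatocyte transcripts the log2 fold change was -0.35, with an adjusted p of 0.0196 in edgeR.

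Il17rc, the chain that joins IL-17RA in the receptor for IL-17A and IL-17F, was at 3.16, 3.69, 3.73 and 3.36 FPKM in smooth 1 to 4. It was at 3.25, 3.38, 4.09 and 3.59 FPKM in structured 1 to 4, so the surfaces overlapped, and the log2 fold change was 0.03 ± 0.11 (adjusted p = 0.928 in edgeR). Il17ra was therefore present at 2.51 ± 0.231 times the level of Il17rc on the smooth and 1.92 ± 0.175 times on the structured surface (SD, n = 4). The lowest smooth ratio was 2.30 and the highest structured ratio 2.12. Il17rb and Il17re, which pair with IL-17RA for IL-25 and IL-17C, were too low to be tested.

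Beyond the receptor, no gene of the machinery that carries the IL-17 signal passed the test. All 19 genes listed as adaptors and kinases were tested, 0 rose and 0 fell in edgeR, and their median log2 fold change was 0.01. Of the 19, 4 had an unadjusted p under 0.05, as did 18.7% of all tested genes. Traf3ip2, which encodes Act1, the adaptor recruited by the IL-17 receptor, had 4.74, 4.74, 5.22 and 5.69 FPKM in smooth 1 to 4 and 4.54, 4.31, 5.10 and 4.35 in structured 1 to 4. These ranges overlapped, and the log2 fold change was -0.16 ± 0.08 (adjusted p = 0.330 in edgeR). Srsf1, a splicing factor that binds Act1 and the most abundant gene on the list, differed by 0.07 ± 0.03.

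Among 18 genes known to respond to IL-17, 13 were tested, 2 rose and 1 fell, with a median of -0.05. Saa3, an acute-phase protein made by macrophages, rose from 0.348, 0.397, 0.341 and 0.318 FPKM in smooth 1 to 4 to 2.35, 2.69, 2.56 and 3.38 in structured 1 to 4. Lcn2, which withholds iron from bacteria, rose from 0.584, 0.135, 0.236 and 0.434 FPKM to 3.99, 6.17, 5.61 and 5.59. The log2 fold changes were 2.93 ± 0.16 for Saa3 and 3.90 ± 0.35 for Lcn2, opposite in sign to that of Il17ra.

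The gene of this list that fell was Zc3h12a, which encodes the ribonuclease Regnase-1. Its level was 16.8, 18.1, 20.3 and 17.7 FPKM in smooth 1 to 4 and 15.6, 14.7, 16.0 and 14.8 in structured 1 to 4. The groups did not overlap, at -0.26 ± 0.06 (adjusted p = 0.0459 in edgeR), and the call was lost when any library other than smooth 1 was left out. Some neutrophil markers rose in the same contrast, and neutrophils also express Lcn2. Structured 1 had the lowest neutrophil sum of the structured libraries, and also the lowest Saa3 (2.35 FPKM) and Lcn2 (3.99 FPKM) among them. Both values were above every smooth library. The part of these markers in the 2 rises was not tested.

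Of the ligands of these receptors, 11 of 20 genes were in the table and 2, Il17c and Il4, had enough counts to be tested. Neither passed, nor did either have an unadjusted p under 0.05. Il17c, an epithelial-type IL-17, stayed between 0.0812 and 0.480 FPKM and changed by -0.29 ± 0.64. Il4, named here after its values were seen, was at or below 0.230 FPKM in every library. The 9 others in the table were below the filter on low counts, and the 9 not in it were not analysed here.

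Il10ra (chromosome 9, minus strand) encodes the ligand-binding chain of the IL-10 receptor, which restrains macrophage activation through STAT3. It was at 3.81, 4.32, 3.55 and 3.66 FPKM in smooth 1 to 4 and at 4.69, 4.08, 4.51 and 4.61 in structured 1 to 4. Smooth 2 lay inside the structured range, and 3 of 4 structured libraries were above every smooth one. The log2 fold change was 0.22 ± 0.08 (adjusted p = 0.170 in edgeR). Il10rb, the partner chain that IL-10 shares with other cytokines, had -0.12 ± 0.09 and wider spread, from 7.52 to 10.3 FPKM over the 8 libraries. The ratio of Il10ra to Il10rb was 0.421 on the smooth and 0.537 on the structured surface, with overlapping ranges.

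Il6ra (chromosome 3, minus strand) encodes the chain that binds IL-6, and Il6st encodes gp130, the signalling chain of the whole IL-6 family. Il6ra was at 9.52, 8.62, 8.82 and 9.08 FPKM in smooth 1 to 4 and at 9.0, 8.73, 9.44 and 8.93 in structured 1 to 4. The structured values lay wholly within the smooth range, and the log2 fold change was 0.00 ± 0.04 in size, with a sign that varied between alternatives.

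Il6st was at 5.76, 5.54, 5.98 and 5.99 FPKM in smooth 1 to 4 and at 5.30, 5.21, 5.28 and 5.29 in structured 1 to 4. All structured libraries were below all smooth ones, at -0.15 ± 0.04 with an adjusted p of 0.0818 in edgeR. In DESeq2, which called 13.4% of the genes it tested, the adjusted p was 0.0286. Il6ra stood at 1.55 ± 0.0763 times Il6st on the smooth and 1.71 ± 0.0515 times on the structured surface (SD, n = 4), without overlap.

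Of 12 genes known to respond to STAT3 or IL-10, all were tested, 0 rose and 1 fell, with a median of -0.10. Sbno2, a corepressor induced by IL-10, fell by 0.22 on the log2 scale (SE 0.04, adjusted p = 0.0229 in edgeR). Its level was 6.61, 6.43, 6.46 and 6.76 FPKM in smooth 1 to 4 and 5.64, 5.75, 5.86 and 5.37 in structured 1 to 4, without overlap. That call was lost in 12 of 21 alternatives. They included leaving out smooth 2, 3 or 4 or structured 1, 2 or 4, and removing the trend of fold changes with GC content and length (-0.12, adjusted p = 0.192 in edgeR). Stat3 itself differed by -0.07 ± 0.05, and Socs3, the inhibitor that STAT3 induces, by -0.15 ± 0.06. Neither passed.

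Il4ra (chromosome 7, plus strand) encodes the chain that binds IL-4. It joins IL-2RG in one receptor for IL-4, and in another it joins IL-13RA1, which also responds to IL-13, with STAT6 downstream of both. Il4ra was at 0.423, 0.378, 0.297 and 0.335 FPKM in smooth 1 to 4 and at 0.292, 0.364, 0.437 and 0.476 in structured 1 to 4. Structured 1 was the lowest and structured 4 the highest of the 8, so the surfaces overlapped fully, at 0.13 ± 0.20 (adjusted p = 0.804 in edgeR). These levels rest on 124 to 197 count units per library, which allow little precision. Without the 3 libraries rich in hepatocyte transcripts the value was -0.04.

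Il13ra1 (chromosome X, plus strand) was at 1.85, 2.26, 1.94 and 2.12 FPKM in smooth 1 to 4 and at 2.38, 2.82, 2.43 and 2.52 in structured 1 to 4. All structured libraries were above all smooth ones, and 5.77% of tested genes showed such a separation in that direction. The log2 fold change of 0.31 ± 0.11 was of similar size to that of Il17ra, but its SE was wider and its adjusted p was 0.141 in edgeR. Il2rg, the shared gamma chain, was between 13.4 and 15.8 FPKM with a log2 fold change of 0.02 ± 0.06. Il4ra was thus the scarcer chain in both pairings, at 0.0248 and 0.0265 of the Il2rg level and at 0.177 and 0.155 of the Il13ra1 level on the smooth and structured surfaces. Both ratios overlapped between surfaces.

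Of 16 genes listed as responding to STAT6, 8 were tested, 1 rose and 0 fell, and the median log2 fold change was 0.40 over those 8. That median is the midpoint of Il4ra, itself one of the 10 chains, at 0.13 ± 0.20 and Socs1 at 0.68 ± 0.58, both with low counts. An unadjusted p under 0.05 was found for 2 of the 8, Chil3 and Klf4, the latter named after its values were seen, at -0.69 ± 0.24. Chil3, a chitinase-like protein used as a marker of macrophages exposed to IL-4, was listed at 0 in smooth 1 to 3 and at 0.0301 FPKM in smooth 4. In structured 1 to 4 it was at 0.703, 10.5, 11.2 and 14.9 FPKM, so structured 1 was far below the other 3. The fitted change of Chil3 depends on its near-absence from smooth libraries and is no measure of its fold. It rose with an adjusted p of 0.00318 in edgeR, and 2 of 21 alternatives did not call it. Chil3 is also on the neutrophil list, whose sum was lowest among structured libraries in structured 1 as well. How far Chil3 follows either was not tested. Stat6, abundant at 27.3 to 31.2 FPKM, differed by -0.06 ± 0.04.

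Ifngr1 (chromosome 10, plus strand), the ligand-binding chain, was at 6.74, 6.80, 6.95 and 7.53 FPKM in smooth 1 to 4 and at 7.89, 7.22, 7.82 and 7.77 in structured 1 to 4. Smooth 4 lay inside the structured range, and the log2 fold change was 0.13 ± 0.06 (adjusted p = 0.279 in edgeR). Ifngr2 was at 21.7, 21.5, 21.9 and 20.7 FPKM in smooth 1 to 4 and at 21.3, 22.1, 23.0 and 22.4 in structured 1 to 4. These overlapped, at 0.04 ± 0.04. Ifngr1 was the scarcer chain, at 0.327 of the Ifngr2 level on the smooth and 0.346 on the structured surface, with overlapping ranges.

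Of 14 genes known to respond to IFN-gamma, 11 were tested, 0 rose and 1 fell, with a median of 0.13. Nos2, the inducible nitric oxide synthase of inflammatory macrophages, fell by 0.36 on the log2 scale (SE 0.07, adjusted p = 0.0214 in edgeR). It was at 19.9, 16.0, 17.3 and 16.4 FPKM in smooth 1 to 4 and at 15.1, 13.1, 12.8 and 13.5 in structured 1 to 4, without overlap. Leaving out smooth 3, structured 2 or structured 4 ended the call, and over 21 alternatives the adjusted p reached 0.123.

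Ifnar1 and Ifnar2 encode the chains of the receptor for type I interferons, which signals through JAK1 and TYK2 to STAT factors and IRF9. Ifnar1 was at 9.13, 9.69, 10.2 and 9.34 FPKM in smooth 1 to 4 and at 9.46, 9.48, 10.3 and 9.61 in structured 1 to 4. The ranges nearly coincided, at 0.01 ± 0.05. Ifnar2 was at 18.0, 19.7, 17.2 and 18.2 FPKM in smooth 1 to 4 and at 16.8, 15.6, 18.0 and 16.4 in structured 1 to 4. Structured 3 lay inside the smooth range, and the log2 fold change was -0.14 ± 0.06 (adjusted p = 0.204 in edgeR). The ratio of Ifnar1 to Ifnar2 was 0.525 on the smooth and 0.583 on the structured surface and overlapped.

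Ifnar2, Il10rb, Ifnar1 and Ifngr2 lie side by side on the plus strand of chromosome 16 within 192.84 kb, from 91372783 to 91565623, and Ifnar2 ends 0.575 kb before Il10rb begins. None of the 4 neighbours passed the test, and their log2 fold changes, in map order, were -0.14, -0.12, 0.01 and 0.04. Of the 64-base windows of the Ifnar2 transcript, 8.45% also occur in Gm21970, a readthrough gene of the GENCODE M21 annotation. No other gene with deposited values overlaps Ifnar2. How reads from such windows were counted is not given, so whether they affect the count of Ifnar2 is not known.

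Downstream, 10 of 11 JAK, STAT and partner genes were in the table and tested, 1 rose and 0 fell, with a median of -0.07. The gene that rose was Irf9, which joins STAT factors in the complex formed after type I interferon. It was at 2.80, 2.54, 2.38 and 2.27 FPKM in smooth 1 to 4 and at 3.90, 4.04, 3.27 and 3.64 in structured 1 to 4. Every structured library was above every smooth one, at 0.57 ± 0.09 (adjusted p = 0.00992 in edgeR). The kinases that serve these receptors did not pass, with Jak1 at -0.10 ± 0.04, Jak2 at -0.21 ± 0.08 and Tyk2 at -0.03 ± 0.06.

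Among 20 inhibitors of these receptors' signals, 18 were tested, 0 rose and 0 fell in edgeR, and the median was -0.03. Of all tested genes 3.75% were called. An unadjusted p under 0.05 was found for 18.7% of all tested genes and for 9 of these 18. Ptpn6, which encodes the phosphatase SHP-1 and was the most abundant of them, was between 167 and 195 FPKM with a log2 fold change of 0.09 ± 0.04. Socs1, an inhibitor of JAK kinases, was at or below 0.273 FPKM and changed by 0.68 ± 0.58. On other lists, 7 of 12 tested STAT3 and IL-10 genes, 6 of 13 IL-17 response genes and 5 of 11 IFN-gamma genes had such a p. So did 4 of 8 GM-CSF and STAT5 genes, 5 of 15 turnover genes and 3 of 10 JAK and STAT genes. The lists were chosen with earlier results known, so nothing is read from these counts.

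**Figure D2:**
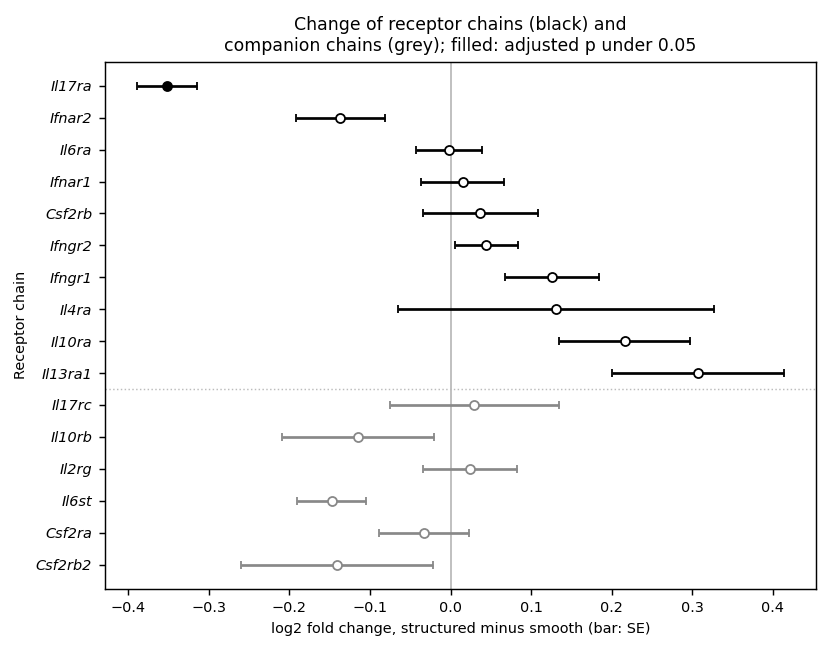
Log2 fold change, structured minus smooth, of the 10 receptor chains (black) and 6 partner chains (grey), with bars of 1 SE, and filled points where the adjusted p in edgeR was under 0.05. Il17ra at -0.35 is the filled point, Il13ra1 at 0.31 lies farthest on the other side with a wider bar, and no partner chain is filled.

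Csf2rb (chromosome 15, plus strand) encodes the beta chain shared by the receptors for GM-CSF, IL-3 and IL-5. Mice also carry Csf2rb2, a nearby copy whose product serves IL-3. Over 2628 aligned coding bases the copies were 95.2% identical, with 125 differences and a longest identical run of 242 bases. A count can thus be assigned between them only where a read covers a difference. Of the 64-base windows of each transcript, 13.4% of Csf2rb and 13.8% of Csf2rb2 occur in another gene. How reads from such windows were counted is not given, so the uncertainty this adds to both values is not known. The stretches below, 5′ to 3′ from the GENCODE M21 transcripts (GRCm38), are examples of coding sequence where the copies are alike and where they differ most. They are shorter than the reads of 150 bases and do not measure how many reads can be told apart. The first is 100 coding bases that the copies share, at chr15:78340783-78340848 and chr15:78341338-78341371 on the plus strand for Csf2rb and at chr15:78292461-78292526 and chr15:78291938-78291971 on the minus strand for Csf2rb2. The other pair is the stretch of 100 aligned bases with the most differences, 17, which are in capitals, at chr15:78338903-78338989 and chr15:78340444-78340456 for Csf2rb and at chr15:78294342-78294428 and chr15:78292853-78292865 for Csf2rb2. Each stretch crosses an exon junction.
Csf2rb and Csf2rb2, shared stretch: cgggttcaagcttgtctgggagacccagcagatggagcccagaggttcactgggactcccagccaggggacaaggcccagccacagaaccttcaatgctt
Csf2rb, most different stretch: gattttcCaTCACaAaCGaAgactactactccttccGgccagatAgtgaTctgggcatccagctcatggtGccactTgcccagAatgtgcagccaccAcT
Csf2rb2, most different stretch: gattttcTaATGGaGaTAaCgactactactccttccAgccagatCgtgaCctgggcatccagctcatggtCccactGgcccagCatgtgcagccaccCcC

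Csf2rb was at 1.55, 1.54, 1.53 and 1.50 FPKM in smooth 1 to 4 and at 1.57, 1.57, 1.61 and 1.56 in structured 1 to 4. The ranges did not overlap, though the highest smooth and the lowest structured value were 1.55 and 1.56, and the log2 fold change of 0.04 ± 0.07 had an adjusted p of 0.855 in edgeR. The spread of Csf2rb was the smallest of the 10 chains, with a coefficient of variation of 1.39% on the smooth surface, and that of Il4ra the widest, at 20.8% on the structured one. Csf2rb2 was between 1.00 and 1.29 FPKM, at -0.14 ± 0.12. Csf2ra, the GM-CSF-binding chain, was far more abundant, at 18.8 to 22.9 FPKM, and differed by -0.03 ± 0.06. Csf2rb stood at 0.0768 of Csf2ra on the smooth and 0.0803 on the structured surface, and these ratios overlapped.

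**Figure D3:**
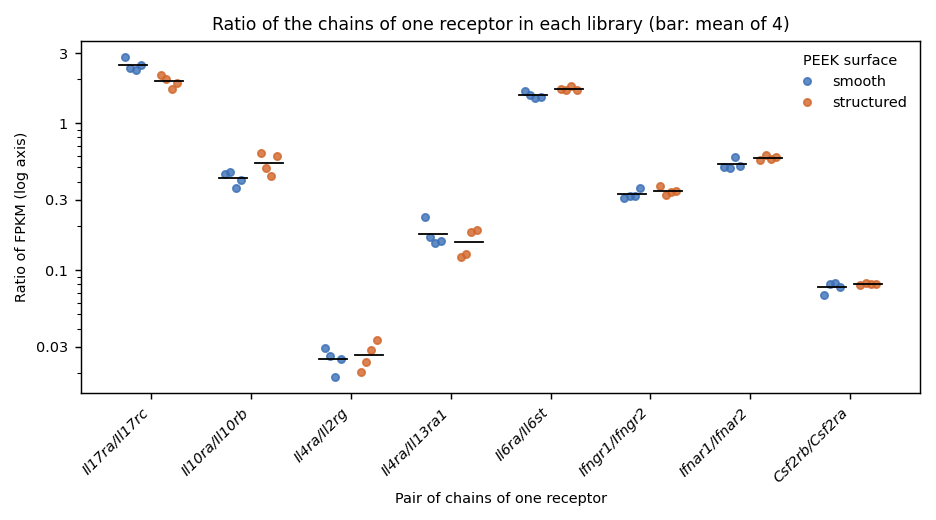
Ratio of FPKM (log axis) between the chains of one receptor in each of the 8 libraries, with smooth PEEK in blue, structured PEEK in orange and a bar at the mean of 4. The colours separate for Il17ra over Il17rc, lower on the structured surface, and for Il6ra over Il6st, higher on it, and overlap for the other 6 pairs.

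Of 10 genes listed for GM-CSF and STAT5, 8 were tested, 0 rose and 1 fell, with a median of -0.11. Bcl6, a transcriptional repressor, was at 11.5, 11.3, 11.6 and 10.9 FPKM in smooth 1 to 4 and at 9.36, 8.25, 9.86 and 9.04 in structured 1 to 4. The groups were separate, and Bcl6 fell by 0.32 on the log2 scale (SE 0.05, adjusted p = 0.0125 in edgeR). Without structured 4 the adjusted p was 0.0516 in edgeR.

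The wider set of partner and related receptor chains held 31 genes, of which 28 were in the table and 19 were tested. None rose and none fell in edgeR, and the median was 0.02. An unadjusted p under 0.05 was found for 1 of the 19, against 18.7% of all tested genes. Csf1r, the receptor for M-CSF and the most abundant chain on that list, was between 252 and 284 FPKM, and its log2 fold change was 0.01 ± 0.03. Of 15 genes for receptor shedding, sorting and turnover, all were tested, 0 rose and 1 fell, with a median of -0.07. Rhbdf2, which encodes iRhom2, the escort of the sheddase ADAM17 in macrophages, fell by 0.20 on the log2 scale (SE 0.04, adjusted p = 0.0304 in edgeR). It ran from 14.1 to 14.6 FPKM on the smooth and from 11.7 to 13.4 on the structured surface, and the groups did not overlap. The call was lost in 12 of 21 alternatives, among them leaving out smooth 2, 3 or 4 or structured 1, 2 or 4. Once the trend with GC content and length was taken out the value was -0.14 (adjusted p = 0.106 in edgeR). Adam17 itself, named after its values were seen, ran from 33.4 to 36.8 FPKM on the smooth and from 38.4 to 39.7 on the structured surface. Its log2 fold change was 0.15 ± 0.04, the opposite sign to Rhbdf2, and it did not pass (adjusted p = 0.0778 in edgeR).

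**Figure D4:**
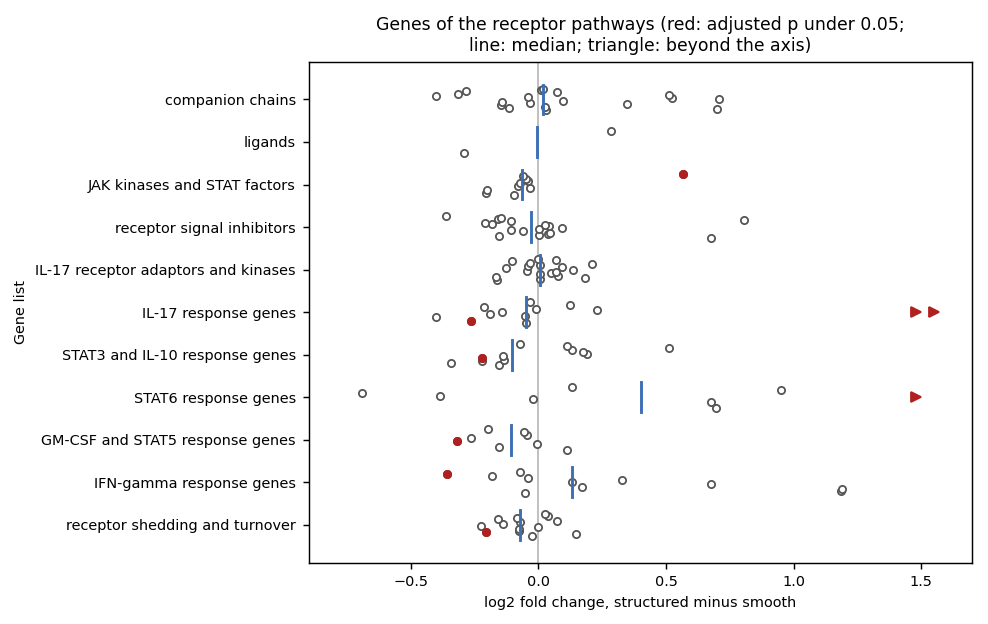
Log2 fold change, structured minus smooth, of every tested gene of the 11 pathway lists, with called genes in red, a blue line at each list's median and triangles for Saa3, Lcn2 and Chil3, which lie beyond the axis at 2.93, 3.90 and 9.66. Most points are open and within 0.5 of 0, and each list holds at most 3 red points.

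The genes whose pattern over the 8 libraries was most like that of Il17ra were Smarca4, Rusc2, Lasp1, Plekhm1 and Dnmt1, of 6568 genes with a mean of at least 5 FPKM that were compared. Pearson correlations of log2 CPM with Il17ra were 0.988, 0.987, 0.982, 0.981 and 0.980 in that order. These 8 points share the split by surface. After the mean of each surface was subtracted, the correlations were 0.77, 0.35, 0.66, -0.14 and 0.68, so Plekhm1 followed Il17ra between the surfaces but not among libraries of one surface. Since Il17ra differed between the surfaces, a search by likeness to it finds genes that are lower on the structured surface. Their log2 fold changes, given as a description, ran from -0.18 ± 0.03 for Smarca4, a chromatin remodelling ATPase, to -0.52 ± 0.04 for Rusc2. That of Dnmt1, the maintenance DNA methyltransferase, was -0.20. The call of Smarca4 was lost in 3 of 21 alternatives, among them leaving out structured 2 or structured 4. That of Dnmt1 was lost in 2 of 21, among them leaving out structured 4.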

How the data were processed

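The labels' protocols describe oligo(dT) selection, dUTP marking of the second strand, adapters with molecular identifiers and read pairs of 150 bases. The submitters' processing notes name cutadapt 1.9 and HISAT2 2.2.1. Neither gives the counter, strand setting, use of the identifiers, annotation or build, and gene positions are those of the table. The authors deposited 1 table with whole-number estimated counts and FPKM for each library. The deposited expected counts pile up at multiples of 4 (32.1% of values from 1 to 40). They are called count units here and were used as they stand. Per the file headers, the authors also gave each value as FPKM, which is scaled for length and depth.

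Counts were analysed in edgeR 4.0.16 (R 4.3.3) with filterByExpr at a minimum count of 10, TMM scaling, a two-sided quasi-likelihood test and Benjamini-Hochberg adjustment over 16006 genes at 0.05. The step was tested on simulated counts. The SE of an edgeR log2 fold change was derived as the size of that change divided by the square root of the quasi-likelihood F statistic. Log2 CPM used a prior count of 2. Alternatives were other filters and scalings, counts divided by 4, voom, limma 3.58.1 on log2(FPKM + 0.5), with 0.1 or 1 in place of 0.5, DESeq2 1.42.0, a replicate block, correction for GC content and length, and leaving out libraries. Leaving out 3 libraries together was chosen after seeing the data. The receptor chains and the gene lists were chosen with earlier results of these data known. Named genes are the 10 chains, up to 4 called genes per list with the smallest p or else its most abundant gene, 14 genes by name, and the 5 most like Il17ra. Exceptions are marked where they occur. A gene of these lists is not reported here. Library numbers are those of the library names. Matplotlib 3.10.9 (Python 3.11.15) drew the figures.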

Additional observations from a re-analysis of the deposited data

Results flagged for a closer look

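In groups of 4 libraries, a value was singled out where its gap to the nearest of the others, divided by the range of the group, exceeded Dixon's critical value at 95%. Of 84 groups, 2 in FPKM were singled out, and chance alone marks about 1 in 20. Csf2ra, the GM-CSF-binding chain, was at 22.9 FPKM in smooth 1 against 18.8 to 19.5 in the other smooth libraries, and without smooth 1 its log2 fold change was 0.03 in place of -0.03. Chil3 was at 0.0301 FPKM in smooth 4 and listed at 0 in the other smooth libraries, from 5 count units.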

How the results depend on the processing

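Il17ra was called in all 21 alternatives, with log2 fold changes from -0.36 to -0.29 and adjusted p from 1.5e-12 to 0.0196, and it was the 1 receptor chain called in each. The count over all genes moved more. Against 601 it was 189 with no filter, 1433 in DESeq2, 191, 242 and 187 by limma on FPKM (pseudocounts 0.5, 0.1 and 1), and 186 without the 3 libraries rich in hepatocyte transcripts. With 1 library left out it ran from 88 (without structured 4) to 597, and was also under 601 by more than 1.5 times without smooth 2 (240), smooth 3 (166), smooth 4 (219), structured 1 (306) or structured 2 (125). The split of 161 higher and 440 lower became 207 and 248 after removal of the GC and length trend, and 553 and 880 in DESeq2. Of 874 values of the 42 named genes, 790 kept sign and call, 53 lost the call, 1 gained it (Il6st in DESeq2) and 30 changed sign. Every sign change was in a gene that was not called. Without the 3 libraries the values were -0.042 for Il4ra, -0.052 for Ifnar1, -0.13 for Il17rc, 0.019 for Csf2ra and 0.034 for Tyk2. After trend removal they were 0.048 for Il6ra, -0.0083 for Il2rg and 0.041 for Tyk2. With 1 library left out, ranges that crossed 0 were -0.023 to 0.015 for Il6ra, -0.017 to 0.048 for Ifnar1, -0.019 to 0.031 for Csf1r, -0.58 to 0.18 for Il17c, -0.040 to 0.075 for Il17rc, -0.0087 to 0.071 for Il2rg, -0.058 to 0.026 for Csf2ra and -0.091 to 0.0064 for Tyk2. Il6ra was also 0.0031 with upper-quartile scaling, 0.0010 with DESeq2 or its size factors, 0.00095 with no filter, 0.0031, 0.0033 and 0.0030 by limma on FPKM, and 0.00038 with counts divided by 4. Calls were lost by Zc3h12a in 13 alternatives, by Sbno2 and Rhbdf2 in 12 each, and by Nos2 in 8. The causes were not tested. The labels do not say whether library numbers pair the surfaces. Deviations of same-numbered libraries correlated at -0.12, 0.39, 0.18 and -0.04, and those of differently numbered ones at -0.25 to 0.31. These ranges overlap, so the correlations cannot decide whether the numbers pair. With the number as a replicate block 499 genes were called (125 higher, 374 lower) and Il17ra kept -0.35 with an adjusted p of 0.0123. Low count units limit Il4ra, Il17c and Socs1.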

Other observations

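Il10, the ligand of the Il10ra chain and a gene looked at after its values were seen, was listed at 0 FPKM in all 4 smooth libraries and at 0.122, 0.210, 0.0774 and 0.173 FPKM in structured 1 to 4, from 12, 21, 8 and 16 count units. It was below the filter on low counts and was not tested.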
